A study of Junonia coenia with 20 samples.

Results

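JC_0091645 was the transcript with the third highest mean level in pupal hind wings of the buckeye butterfly, Junonia coenia, and it is described here with the 60 transcripts whose levels followed it most closely. The 61 transcripts were taken from 16251 in the authors' table of RPKM (reads divided by transcript length and library size). Each library's RPKM was divided by a library factor to give scaled RPKM. The factor is the median, over 7126 transcripts that reach 1 RPKM in all 16 libraries, of the ratio to the transcript's geometric mean. Levels on the log2(scaled RPKM + 1) scale are called log2 levels. The rule took the 60 transcripts with the highest Pearson correlation of log2 level with JC_0091645 over 12 pupal libraries, among the 4306 whose mean pupal log2 level was at least 4. The transcripts were thus chosen by their pupal values, and every pattern among the pupal libraries below is a description with no test. The same holds for the members' levels in pupae against larvae, which use those pupal values too.

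Hind wings were sampled from the Rosa and Linea colour morphs at 4 stages: imaginal discs of the final larval instar, pre-pigment pupae, early (yellow) ommochrome wings and late (orange/red) ommochrome wings. Animals came from a North Carolina population on artificial diet, kept at 21°C with 8 h of light or at 27°C with 16 h of light. The labels do not tie a morph to a regime, so morph and rearing conditions cannot be told apart, and they do not say whether a library is 1 animal or a pool. Of 20 labelled samples 16 have a column, 2 for each of the 8 combinations of morph and stage. The larval libraries are replicates 2 and 3 of each morph, the early ommochrome libraries are Rosa replicates 1 and 3 and Linea replicates 1 and 2, and the other groups are replicates 1 and 2.

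Ommochromes are pigments made from tryptophan, and in nymphalid wings they give the yellow, red and brown colours. They are laid down in the scale cells of the pupal wing, after those cells have grown out from the epithelium and while they are building their cuticle. In this species the Rosa form is known as the dark red hind wing of cool, short days, and the Linea form as the tan hind wing of warm, long days. The table names transcripts by identifiers of the authors' own assembly. It gives no gene names or sequences, so roles are not given and the markers that would check the tissue could not be read.

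The 61 transcripts shared a lower mean level in the Rosa early ommochrome libraries than in the 10 other pupal libraries. In 17 of them the ranges overlapped. JC_0091645 had 10454 and 33631 scaled RPKM in Rosa pre-pigment wings and 17605 and 28923 in Linea ones. At early ommochrome it had 242 and 1026 in Rosa and 23008 and 49859 in Linea. At late ommochrome it had 14538 and 19021 in Rosa and 14949 and 14394 in Linea. The Rosa early libraries were thus the lowest pupal ones, and at both other pupal stages the ranges of the morphs overlapped. The difference in log2 level between Rosa early wings and the mean of the 10 other pupal libraries was -5.35. In as-deposited RPKM it was the most abundant transcript of Linea early replicate 2, and it ranked 269 and 63 in Rosa early replicates 1 and 3.

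**Figure D1:**
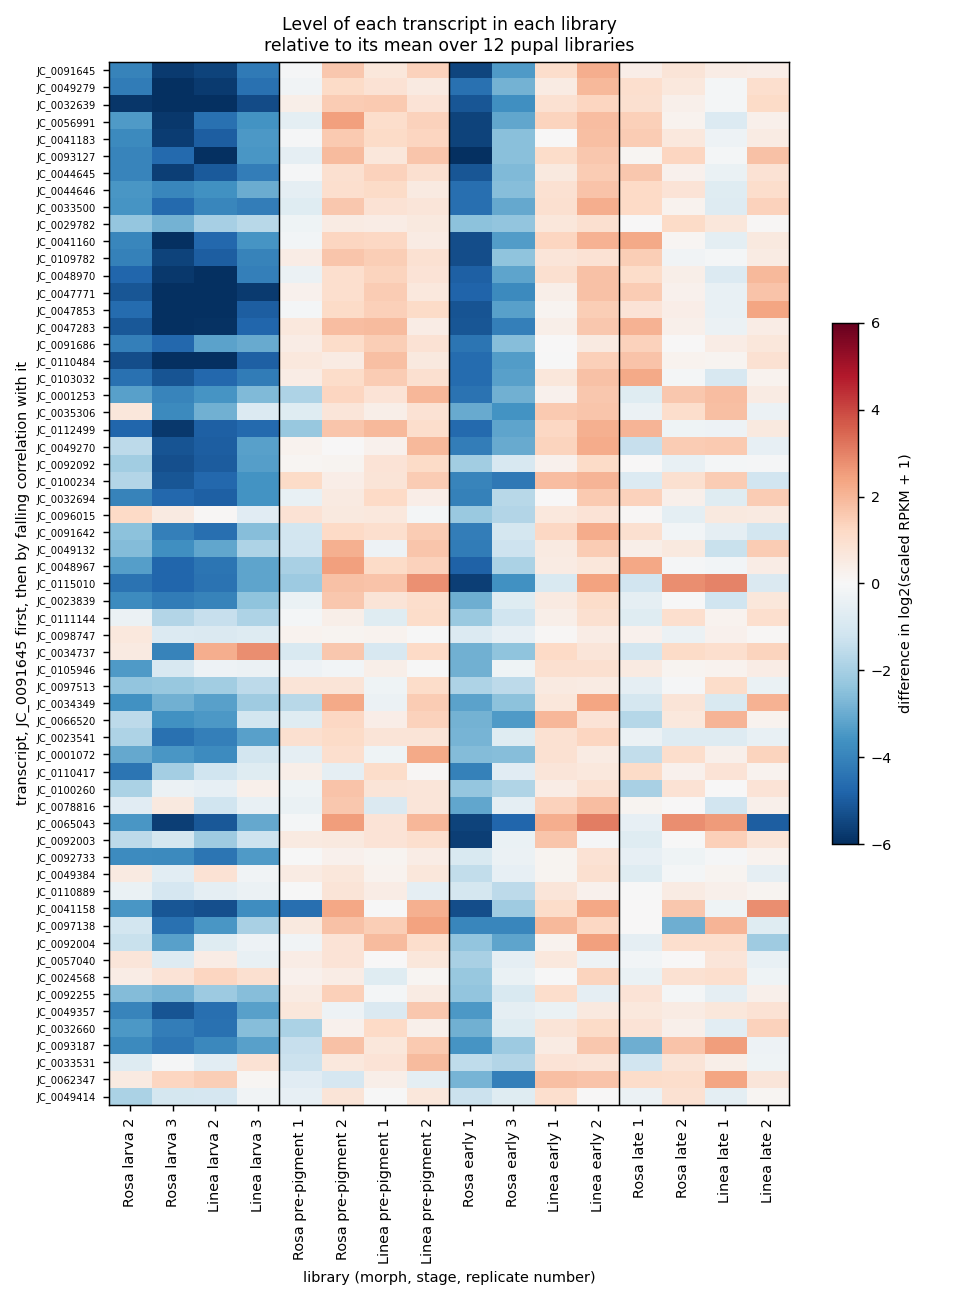
Log2 level of each of the 61 transcripts (rows) in each of 16 libraries (columns, by stage, with Rosa left of Linea), as the difference from the transcript's mean over 12 pupal libraries; colours saturate at the ends of the scale. The Rosa early columns are blue in nearly every row. The other pupal columns are mostly near white or red, with some blue cells, such as JC_0065043 in Linea late replicate 2. The larval columns are blue in most of the upper rows and mixed in the lower ones.

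The transcripts nearest to JC_0091645 shared its low Rosa early values, at lower levels. Among the other pupal libraries they followed it less closely. Without Rosa early, a choice made after seeing the data, JC_0049279, JC_0032639 and JC_0056991 had correlations of 0.714, 0.501 and 0.764 with it. JC_0049279, with the highest correlation (0.975), had 67.1 and 210 scaled RPKM in Rosa early wings, against a lowest value of 1301, a median of 2535 and a highest of 5858 in the 10 other pupal libraries. JC_0032639 (correlation 0.965) had 30.1 and 84.2 scaled RPKM in Rosa early wings, against 1019, 2091 and 3289 as the lowest, median and highest of the others. JC_0056991 (correlation 0.961) had 26.8 and 149 scaled RPKM in Rosa early wings, against 738, 2951 and 7227 in the others. For all 3 of these the Rosa early values lay below every other pupal library.

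JC_0093127 had 23 and 521 scaled RPKM in Rosa early wings, against 2010, 6777 and 11179 as the lowest, median and highest of the 10 other pupal libraries. JC_0041183 had 5.09 and 49.9 in Rosa early wings, against 231, 551 and 1007. JC_0044645 had 33.5 and 191 in Rosa early wings, against 917, 2272 and 3694. JC_0044646, whose identifier is the next number after JC_0044645, had 0.567 and 5.13 in Rosa early wings, against 20.9, 70.1 and 117. The gap between the lower and the higher Rosa early library was wide in each, and neither reached the other pupal libraries. The rest of the 10 nearest, JC_0033500, JC_0029782 and JC_0041160, had correlations between 0.941 and 0.95 and log2 differences between Rosa early wings and the other pupal libraries of -4.57, -2.9 and -5.2.

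In 44 of the 61 transcripts both Rosa early libraries lay below all 10 other pupal libraries, against 2.02% of the 4306 transcripts at the same level threshold. The pupal pattern chose the members, so the first count describes the choice. The Rosa early mean was lower than the mean of the 10 others in all 61. The log2 differences ran from -6.2 to -0.75 with a median of -3.62, and they were at least 1 unit in 59 (6.06% of the 4306). The remaining 4245 transcripts at that level had a median difference of 0.15. Both Rosa early libraries lay below both Linea early libraries in all 61 (17% of the 4306), by at least 1 log2 unit between the means in 60 (9.22%). They lay below both Rosa pre-pigment libraries in 56 (16.1%) and below both Rosa late libraries in 55 (15.4%).

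The Rosa early libraries also differed from each other. In 53 of the 61 transcripts replicate 1 was lower than replicate 3, against 51.3% of the 4306, and the median gap among the 61 was 1.46 log2 units, against 0.01 among the 4245 others. JC_0110417, for example, had 64 scaled RPKM in replicate 1 and 683 in replicate 3, against 734 to 2371 in the 10 other pupal libraries. It is named here for its values.

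The 61 transcripts held a large part of the summed RPKM in most pupal wings. RPKM is divided by transcript length, so these are not shares of reads. They made up 0.46% and 1.52% of the summed RPKM in Rosa early replicates 1 and 3 and 13.8% and 23.1% in Linea early replicates 1 and 2. In pre-pigment wings they held 7.76% and 18.9% in Rosa and 13.8% and 12.4% in Linea, and in late ommochrome wings 17.1% and 11.9% in Rosa and 10.5% and 14.4% in Linea. The larval libraries had 1.8% and 1.92% in Rosa and 1.49% and 1.69% in Linea. RPKM is relative to the library, so a smaller share of these transcripts goes with higher RPKM of the rest. The scaling factor was 1.42 and 1.02 in Rosa early replicates 1 and 3 and between 0.578 and 1.17 in the 10 other pupal libraries. With RPKM as deposited the median log2 difference between Rosa early and the other pupal libraries was -3.22. In these bulk samples, fewer cells of a type and less RNA per cell cannot be told apart.

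**Figure D2:**
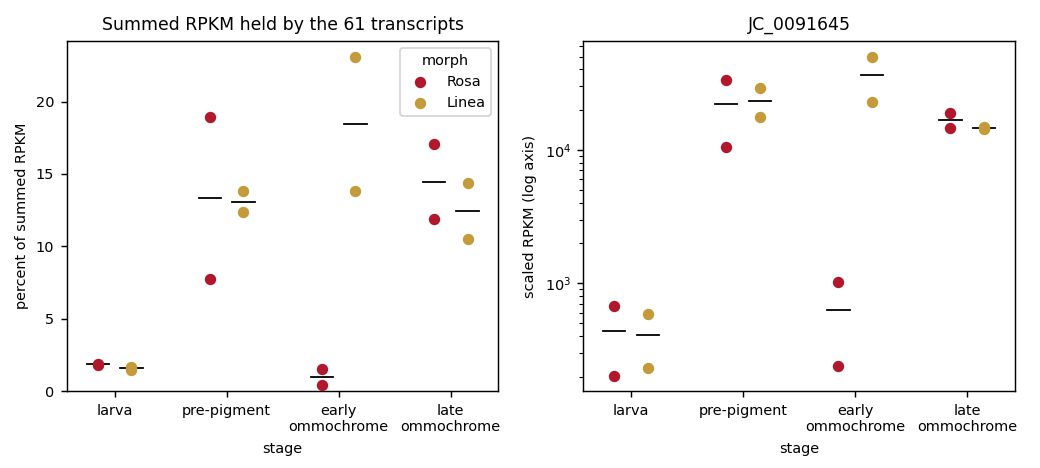
Left, percent of the summed RPKM held by the 61 transcripts in each library; right, scaled RPKM of JC_0091645 on a log axis. Points are libraries, with Rosa left of Linea at each stage, and black bars are means of 2; the Rosa early points sit at 0.46% and 1.52%, beside 13.8% and 23.1% in Linea.

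Likeness to larval discs was also measured away from the 61 transcripts. Over the 4245 other transcripts, the median Spearman correlation with the 4 larval libraries was 0.274 and 0.312 in Rosa early replicates 1 and 3 and 0.236 and 0.249 in Linea early replicates 1 and 2. It was 0.105 and 0.334 in Rosa and 0.161 and 0.317 in Linea pre-pigment wings, and 0.191 and 0.362 in Rosa and 0.195 and 0.364 in Linea late wings. Both Rosa early values thus lay above both Linea early ones and inside the range of the other stages, and the part of this in the members' levels was not tested. Their median correlation with the other pupal libraries was 0.58 and 0.61, against 0.44 to 0.62. These are correlations across transcripts, which are not independent replicates.

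The transcripts differed widely in abundance. Mean pupal log2 levels ran from 4.1 to 13.4 with a median of 6.77, against a median of 4.98 in the 4245 others, and 19 of the 61 were among the 100 transcripts with the highest mean pupal level. JC_0047771 and JC_0047853 followed JC_0091645 in abundance. JC_0047771 had 232 and 469 scaled RPKM in Rosa early wings, against 4812, 11641 and 22237 as the lowest, median and highest of the 10 others, and JC_0047853 had 134 and 502, against 3588, 9596 and 24977. At the low end JC_0110889 had 7.32 and 4.72 scaled RPKM in Rosa early wings, against 10.8, 19.7 and 28.5. JC_0049132 had 0.0811 and 7.12, against 6.63, 27.4 and 83.4, so that its higher Rosa early value lay within the range of the others. JC_0035306 had 1.46 and 0.677, against 11, 34.1 and 69.1.

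Differences among the 6 pupal groups held a median of 77.2% of each transcript's sum of squares in the 61 and 48.7% in the 4245 others, and the rest lay within replicate pairs. The median part of the interaction between stage and morph was 34.1%, against 11.1% in the others, and the part of morph was 21.3%, against 3.92%. The part of stage was 21.6%, against 22%. The rule used these values, and a low level in the Rosa early group alone adds to each of these parts. The median log2 difference of Rosa minus Linea was -4.1 at early ommochrome, -0.4 in pre-pigment and 0.03 in late wings. The group share was highest in JC_0096015 (94.1%), JC_0032639 (93.8%) and JC_0062347 (93.5%). JC_0096015 had 3.7 and 5.66 scaled RPKM in Rosa early wings, against 14 to 39.2 in the other pupal libraries. The share was lowest in JC_0049414 (52.4%), JC_0093187 (53.2%) and JC_0024568 (53.2%). JC_0093187 had 7.84 and 76.3 scaled RPKM in Rosa pre-pigment wings and 1.99 and 73.2 in Rosa late wings, so its replicates lay far apart within both groups.

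Outside the Rosa early libraries the levels varied less between groups. At late ommochrome the median log2 difference of Rosa minus Linea was 0.03, and it was at least 1 unit in either direction in 12 of the 61 (15.5% of the 4306). In pre-pigment wings the median difference was -0.4, and 10 of the 61 were at least 1 unit lower in Rosa (14.3%). In Linea the median log2 difference of early ommochrome minus pre-pigment was 0.18 and that of late minus early ommochrome was -0.59. In the 4245 others these medians were 0.03 and 0.01. From early to late ommochrome in Linea, 15 of the 61 were lower by at least 1 unit (10.7% of the 4245 others) and 0 higher (8.27%). JC_0091645 itself had a mean of 36433 scaled RPKM in Linea early and 14672 in Linea late wings. The rule chose by correlation with it, so this direction partly describes the choice. Over the 10 pupal libraries without Rosa early, the median standard deviation of log2 level was 0.85 in the 61 and 0.71 in the 4245 others. Linea early replicate 2 held the highest pupal value of 20 of the 61 transcripts, against 6.22% of the 4306.

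Correlation with JC_0091645 was lower when the Rosa early libraries were left out. Over 12 pupal libraries the 60 correlations ran from 0.743 to 0.975 with a median of 0.845. Over the 10 libraries without Rosa early, a choice made after seeing the data, they ran from -0.334 to 0.836 with a median of 0.5, against a median of 0.05 in the 4245 others. JC_0091642, whose number is 3 below that of JC_0091645, had the highest value and JC_0110417 the lowest. The 60 were chosen over 12 libraries that include these 10, so their higher median over the 10 partly describes the choice. The rule applied to those 10 libraries kept 7 of the 60. Between pairs of the 61 the median correlation was 0.745 over 12 libraries and 0.22 over 10. The points share library, scaling and, in each group, stage and morph.

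**Figure D3:**
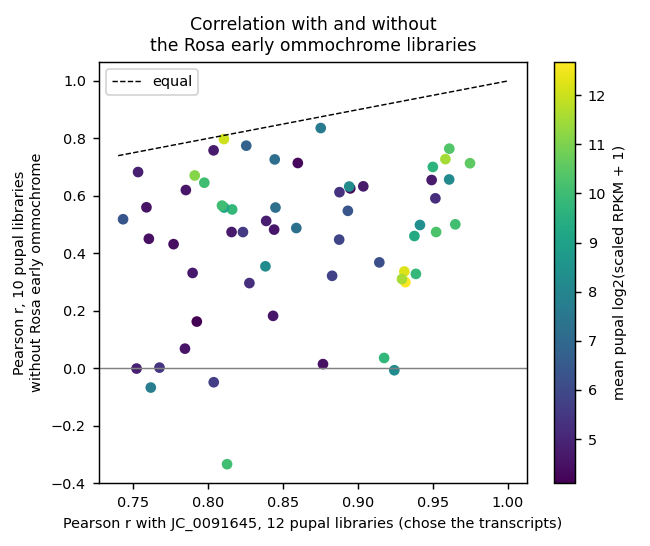
Pearson correlation of log2 level with JC_0091645 over 12 pupal libraries (x) and over the 10 without Rosa early ommochrome (y) for 60 transcripts, coloured by mean pupal log2 level. All 60 points lie below the dashed line of equal values, and on the y axis they spread from -0.334 to 0.836.

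At late ommochrome the 61 transcripts split by library across the morphs. In 17 of them Rosa replicate 2 and Linea replicate 1 both lay above Rosa replicate 1 and Linea replicate 2 (12.4% of the 4306), and in 24 both lay below (11%). These pairs of libraries were picked after the values were seen. JC_0065043 had 747 and 7301 scaled RPKM in Rosa late replicates 1 and 2 and 6256 and 33.4 in Linea late replicates 1 and 2. JC_0115010 had 65.1 and 1011 in Rosa and 1129 and 77.7 in Linea, in the same order. JC_0047771 had the opposite order, with 19071 and 7872 in Rosa and 4812 and 21278 in Linea. JC_0065043 and JC_0115010 are named here for their values.

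At the edge of the rule, the last transcripts inside were JC_0033531, JC_0062347 and JC_0049414, with correlations of 0.753, 0.752 and 0.743. The nearest outside were JC_0051441, JC_0023797 and JC_0092704, with 0.742, 0.741 and 0.739, so no gap separates the 61 from the rest. JC_0062347 had 3.09 and 0.664 scaled RPKM in Rosa early wings and 100.4 and 92.5 in Linea early wings. At late ommochrome it had 59.9 and 57.9 in Rosa and 149 and 46.9 in Linea.

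Some of the identifiers are close in number. Among the 61 there are 6 pairs whose numbers differ by at most 20. JC_0044645 and JC_0044646 had a correlation of 0.984 over the 16 libraries, and the ratio of their scaled RPKM ran from 16.7 to 59.1. JC_0092003 and JC_0092004 had 0.5, and the other pairs had 0.849 to 0.939. Without sequences it cannot be told whether such pairs are pieces or copies of 1 gene, between which reads could be shared, so they may not be separate observations.

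Levels in pupal wings and larval discs were set side by side with limma (means of the 6 pupal and the 2 larval groups, all 16 libraries in 1 fit, Benjamini-Hochberg adjustment over 15798 transcripts, threshold 0.05). All 61 passed the filter of 1 RPKM in 2 libraries. Of the 61, 46 were higher in pupae, 0 lower and 15 not called, against 17.1% higher and 18.2% lower of all transcripts tested. The rule demands a high pupal level, which favours higher calls: of the 4306 transcripts at the same level threshold, 35.3% were higher and 14.8% lower. That share does not cover the correlation the rule also used, so the members' calls describe them and are no independent test, and their p-values are not given. The median log2 difference of the 61 was 3.59, against 0.42 in the 4245 others and -0.09 in all tested. With RPKM as deposited, where the median of all transcripts was -0.84, 42 of the 61 were higher and 4 lower, and of all transcripts 1574 were higher and 6837 lower (2698 and 2880 with scaled values).

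JC_0032639 had the largest difference, with 30.1 to 3289 scaled RPKM in the 12 pupal libraries, against 18 and 6.92 in Rosa larvae and 5.41 and 25.5 in Linea larvae. Its log2 difference was 6.43 ± 0.47 (SE). JC_0047771 had 186 and 36.1 scaled RPKM in Rosa larvae and 44.9 and 122 in Linea larvae, below all its pupal values, and its log2 difference was 6.37 ± 0.58 (SE). JC_0047283 and JC_0047853 followed with 5.88 ± 0.57 and 5.68 ± 0.62 (SE). For JC_0047283 and JC_0047853 the lower Rosa early library lay within the larval range, at 83.3 and 134 scaled RPKM, against larval ranges of 13.1 to 110 and 36.8 to 195.

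JC_0091645 itself had 671 and 204 scaled RPKM in Rosa larvae and 231 and 585 in Linea larvae. Its pupal minus larval log2 difference was 4.89 ± 0.55 (SE). The 10 pupal libraries other than Rosa early all lay above the 4 larval ones, the lowest of them at 10454 scaled RPKM, whereas Rosa early replicate 1 lay inside the larval range. In 40 of the 61 transcripts the 10 other pupal libraries all lay above the 4 larval libraries (18.5% of the 4306), and with the Rosa early libraries included this held in 5 (17%). In Rosa early wings 33 of the 61 were within 1 log2 unit of the larval mean, against 46.9% of the 4306, while 15 were at least 1 unit above it and 13 at least 1 unit below.

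JC_0092733 was above the larval range in every pupal library. It had 13 and 20 scaled RPKM in Rosa early wings and 18 to 46.7 in the other pupal libraries, against 0.908 and 0.872 in Rosa larvae and 0.263 and 1.51 in Linea larvae. Its log2 difference between pupae and larvae was 3.85 ± 0.27 (SE), and it was named after its values were seen. Its log2 difference between Rosa early and the other pupal libraries was -0.75, the smallest of the 61.

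No member was called lower in pupae with scaled values. The most negative log2 differences were those of JC_0024568 (-0.89 ± 0.42 SE), JC_0062347 (-0.87 ± 0.39 SE), JC_0034737 (-0.37 ± 0.76 SE) and JC_0096015 (-0.28 ± 0.27 SE). The difference of JC_0034737 turned to 0.77 without Rosa larva replicate 2 and was -1.51 without Rosa larva replicate 3. That of JC_0096015 turned to 0.12 and that of JC_0034737 to 0.16 without both Rosa early libraries, an alternative added after seeing the data. JC_0062347 had 40.6 and 69.9 scaled RPKM in Rosa larvae and 78.9 and 30.5 in Linea larvae, which overlaps its pupal range of 0.664 to 149. It was called lower with the replicate number as a block and without Linea late replicate 1. With RPKM as deposited JC_0024568, JC_0062347 and JC_0096015 were all called lower, at -1.89, -1.87 and -1.27.

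**Figure D4:**
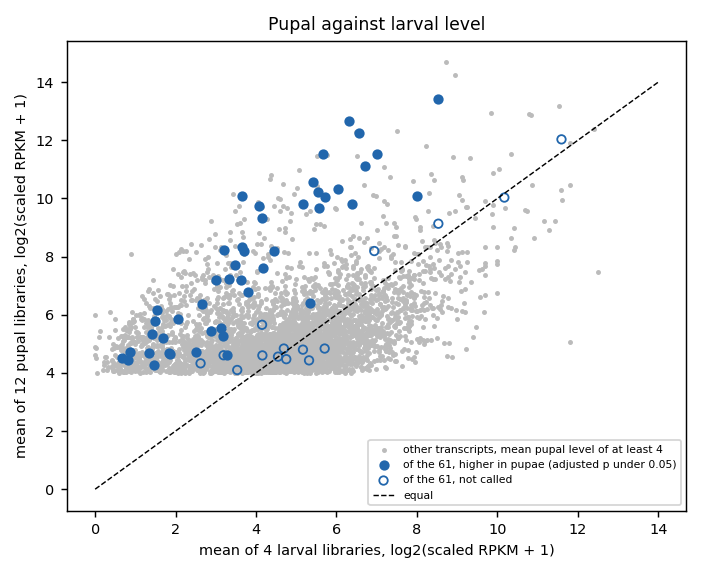
Mean log2 level over 12 pupal libraries (y) against the mean over 4 larval libraries (x) for the 61 transcripts (blue, filled where called higher in pupae by limma) and the 4245 others at a mean pupal level of at least 4 (grey). The 46 filled points lie above the dashed line of equal levels, and the 15 open points have pupal minus larval differences between -0.89 and 1.71.

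The larval libraries took no part in the correlation, so the morphs were also compared there. The fit drew its estimate of spread partly from the pupal libraries that the rule used, so its p-values are not wholly free of the choice. None of the 61 transcripts was called between Rosa and Linea larval discs by limma (lowest adjusted p 0.581), and 4 had an unadjusted p under 0.05. Of all transcripts tested 0.0253% were higher and 0.0886% lower in Rosa, and 6.48% had an unadjusted p under 0.05. Among the 4306 transcripts at the level threshold 0.0232% were higher in Rosa and 0% lower. The median log2 difference of Rosa minus Linea was -0.31 among the 61 and -0.07 among the 4245 others. It turned to 0.19 without Rosa larva replicate 3 and to 0.21 without Linea larva replicate 3, and it was -0.85 without Rosa larva replicate 2 and -0.8 without Linea larva replicate 2. The log2 difference of JC_0091645 was 0.01.

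JC_0034737 had the smallest p of the 61. It had 39.7 and 0.718 scaled RPKM in Rosa larvae and 124 and 189 in Linea larvae, which differ by -4.21 ± 1.32 on the log2 scale (SE, limma adjusted p = 0.581). That difference was -6.49 without Rosa larva replicate 2 and -1.92 without Rosa larva replicate 3 (limma adjusted p = 0.0664 and 0.714). JC_0096015 had 49.7 and 31.5 in Rosa larvae and 22.1 and 12.8 in Linea larvae, a difference of 1.18 ± 0.47 (SE, limma adjusted p = 0.716). JC_0105946 had 26.6 and 151 in Rosa larvae and 234 and 230 in Linea larvae, a difference of -1.85 ± 0.83 (SE, limma adjusted p = 0.766), which was -0.62 without Rosa larva replicate 2 and -3.08 without Rosa larva replicate 3. The morphs did not overlap in these, but the differences did not pass the test.

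The larval libraries differed from each other in the same order for many of the 61, across the morphs. Rosa larva replicate 2 and Linea larva replicate 3 both lay above Rosa larva replicate 3 and Linea larva replicate 2 in 40 of the 61, against 19.3% of the 4306. This order was noticed in the data. Rosa larva replicate 3 held the lowest larval value in 38 (27.7% of the 4306) and Linea larva replicate 3 the highest in 35 (32.6%). JC_0049279 had 82.7 and 19.6 scaled RPKM in Rosa larva replicates 2 and 3 and 27.3 and 66.9 in Linea larva replicates 2 and 3, and JC_0091645 followed the same order. Rosa larva replicate 2 also stood apart in the 4245 other transcripts, with a median Spearman correlation of 0.77 to the other larval libraries, against 0.85 to 0.87 for those; the part of this in the order was not tested.

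**Figure D5:**
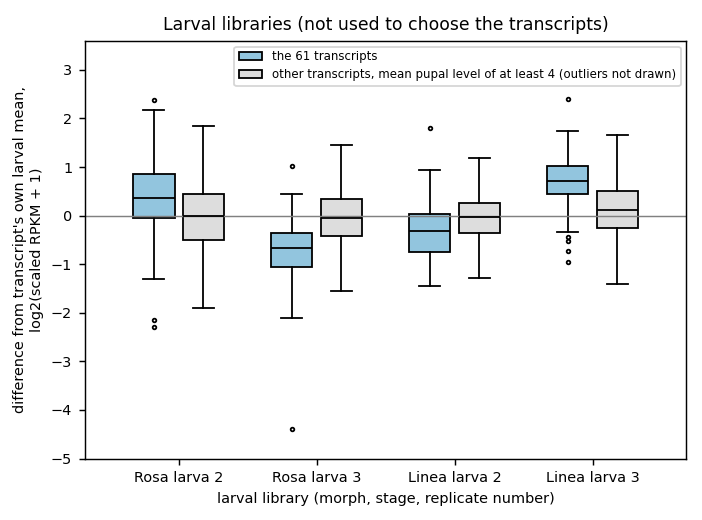
Difference of each transcript's log2 level from its own mean over the 4 larval libraries, for the 61 transcripts (blue) and the 4245 others (grey); boxes span the quartiles with the median as a line, and whiskers reach at most 1.5 box lengths. The blue boxes lie above 0 in Rosa larva 2 and Linea larva 3 and below it in Rosa larva 3 and Linea larva 2, and the grey medians lie near 0.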

How the data were processed

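Double-stranded cDNA was made from polyA RNA, sheared to 300 bp and read as paired ends of 75 or 100 bp, per the labels' protocols. The authors deposited RPKM for the transcripts of their own assembly. The submitters' processing notes name Bowtie 0.12.7; how RPKM was estimated and filtered is not stated. RPKM holds no counts, so depth is unknown and no counting interval is given. No libraries held identical values. Labels do not say that replicates are separate animals, and p-values then reflect the spread of libraries alone, which may be technical.

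Values were scaled as described above and tested on log2(scaled RPKM + 1) with limma 3.58.1 in R 4.3.3. The fit had a mean for each of 8 groups over 16 libraries (residual degrees of freedom: 8), variances moderated along an intensity trend, and the 15798 transcripts that 2 or more libraries held at 1 RPKM. The pseudocount of 1 understates changes of low transcripts. The script was tested on simulated data. Correlations and sums of squares used Python 3.11.15.

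The members, comparisons and alternatives were chosen with earlier results of these data known. Named by rule were JC_0091645, the 10 nearest to it, the 3 on each side of the edge, the 3 highest and 3 lowest levels and the 3 largest and 3 smallest group shares. Also named were the 4 largest and 4 lowest pupal minus larval differences and the 3 smallest larval p-values. Names outside this rule are marked as such or belong to a numbered pair or an extreme.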

Additional observations from a re-analysis of the deposited data

Results flagged for a closer look

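In 6 of the 61 transcripts both Rosa libraries lay above both Linea libraries at another stage, and both Rosa early libraries lay below both Linea early ones, values that the rule used. The difference between stages was not tested. The share of the 4306 transcripts with such an order was not counted, so the 6 are listed as a description only. At late ommochrome, JC_0041183 was higher in Rosa by 0.99 and JC_0091642 by 1.18 on the log2 scale. In larvae, JC_0096015 was higher in Rosa by 1.18. In pre-pigment wings, JC_0023541 was higher in Rosa by 0.27, JC_0024568 by 0.66 and JC_0092255 by 0.78.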

How the results depend on the processing

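Of the 60 transcripts chosen beside JC_0091645, 24 were chosen with a Spearman correlation and 7 without both Rosa early libraries, an alternative added after seeing the data; with each single pupal library left out it was 38 to 58, the lowest without Rosa early replicate 1. The other settings of the rule (quantile normalization, RPKM as deposited, 0.1 as pseudocount, mean log2 levels of at least 3 or 5, the 8 ommochrome libraries alone, stage means subtracted) kept 41 to 59. With the replicate number as a block it was 40. The median Rosa early difference was -4.64 to -3.04 with single libraries left out and -4.21 with a pseudocount of 0.1. It was negative in each setting run, with the 61 held fixed. The 61 had been chosen by these pupal values, so the sign describes the choice. Members higher in pupae numbered 38 to 47 with single libraries left out, 45 with the replicate block and 42 to 50 in all other settings. Members lower in pupae, 0 in the fit reported, numbered 4 with RPKM as deposited, 1 with the replicate block and 0 to 1 with single libraries left out. No member was called between larval morphs in any setting, including the block. For all transcripts, the larval morph calls (4 higher and 14 lower in Rosa) were 11 higher with RPKM as deposited, 2 and 0 with a pseudocount of 0.1, 1 and 0 at a mean of at least 5 RPKM, 0 and 0 on the larval libraries alone, and 9 lower with the block; with single libraries left out they ran from 0 to 146 higher and 7 to 28 lower. Replicate numbers are shared across morphs but no label says they mark a common batch; deviations by number correlated at 0.17 in larvae, 0.38 in pre-pigment and 0.17 in late wings, over 2 numbers each.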
